A study of Mus musculus with 98 samples.

Results

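End structures lying within 20 nt of a RAG-induced break at a chromosomal recombination substrate were examined in mouse pre-B cells. A structure was a member when both strands of the end stopped at positions 2 to 21 of the deposited tables, so members were chosen by the positions recorded in the same tables that hold their reads. Of 2454 different structures listed at the substrate in 6 cell lines, 266 were members. The cells were Abelson-transformed pre-B cells arrested in G1, and all 6 lines lacked DNA ligase IV. H2AX-deficient lines 5 and 8 were Ligase IV -/- H2AX -/-, 53BP1-deficient lines B and C were Ligase IV -/- 53BP1 -/-, and Lig4-/- lines A and B carried no further deletion named in the labels. Each line is 1 transformed culture, so every genotype rests on 2 lines, and p-values measure the spread between lines.

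RAG is the recombinase that cuts antigen receptor genes next to recombination signal sequences in developing lymphocytes. It leaves blunt signal ends and hairpin-sealed coding ends, which Artemis opens. Ligase IV joins broken ends in non-homologous end joining, so in its absence the ends persist. H2AX is the histone variant phosphorylated around breaks, and 53BP1 is a chromatin-bound protein recruited there. Both are known to protect unjoined ends from resection, the removal of nucleotides that starts on the strand ending 5′ and that CtIP and other nucleases carry out. The tables came from HCoDES, in which a single-stranded DNA ligase seals both strands of an end into a hairpin, bisulfite lets the hairpin be amplified, and sequencing shows where each strand stopped.

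Positions were read as nucleotides, with position 2 as the break, so loss is the position minus 2. Structures are written below as 5′-strand loss/3′-strand loss in nt. A structure with more loss from the 5′-ending strand has a 3′ overhang, and one with more loss from the 3′-ending strand has a 5′ overhang. The size and sign of the overhang values were worked out from a digest with KpnI, an enzyme that leaves a 4-nt 3′ overhang. In its table the main structure had an overhang value of 4 and held 99.2% of 307425 reads. The positions that define members held 47 reads in the KpnI table, 0.0153% (exact Clopper-Pearson 95% interval 0.0112 to 0.0203). With so few reads there, that table cannot show that position 2 is the break. Position 2 was taken as the break without a test, and every value of loss rests on that reading. The tables do not say whether an end is a coding or a signal end, and a coding hairpin that was never opened would be scored as an end without loss. The sequence of the substrate was not used here, so ends are given by distance only.

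Tables held 76325 and 72923 reads in H2AX-deficient lines 5 and 8, 337917 and 127289 in 53BP1-deficient lines B and C, and 330683 and 128122 in Lig4-/- line A and line B. Each pooled 3 libraries. Titles give 48 h for H2AX-deficient line 8, 53BP1-deficient line B and both Lig4-/- lines, and no time for the other two. H2AX-deficient line 8 was sequenced in set 2, 53BP1-deficient line C in set 6, and the other 4 lines in set 4. The table of 53BP1-deficient line C stands apart in that it lists structures with 1 read, which were 25 of its 58 members, and in that 1 of its libraries has a title that also names H2AX-deficient line 5 and a description saying that sequences of a second PCR are mixed in. Titles of that line and of Lig4-/- line B include shNT, an abbreviation without an explanation in the labels.

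Near-break ends were the larger part of the reads in Lig4-/- cells and a small part in both mutant genotypes. They held 5.53% of reads in H2AX-deficient line 5 (95% interval 5.37 to 5.69) and 9.14% in line 8 (8.93 to 9.35). They held 4.13% in 53BP1-deficient line B (4.06 to 4.199) and 2.77% in line C (2.68 to 2.86). In Lig4-/- lines A and B they held 60.6% (60.4 to 60.7) and 60.8% (60.6 to 61.1). No mutant line came near a Lig4-/- line. Intervals cover counting error only, since reads of a PCR product carried no molecular identifier and several can stem from 1 molecule.

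**Figure D1:**
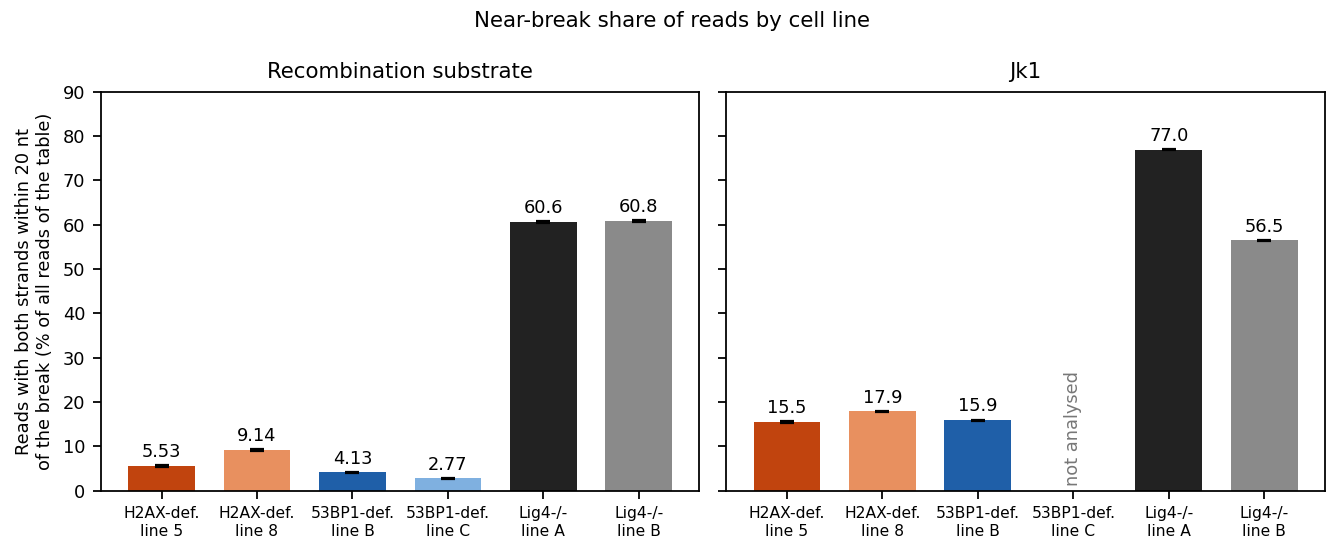
Share of all reads of a table whose 2 strands both stopped within 20 nt of the break (y axis, percent), for each cell line at the substrate and at the Jk1 segment; error bars are exact Clopper-Pearson 95% intervals of counting error. At both breaks every mutant line lies below both Lig4-/- lines, at 2.77 to 9.14% against 60.6 and 60.8% at the substrate.

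The mean was 7.34% ± 2.56 in H2AX-deficient lines, 3.45% ± 0.961 in 53BP1-deficient lines and 60.7% ± 0.178 for Lig4-/- (SD, n = 2 lines per genotype). The H2AX-deficient mean differed from the Lig4-/- mean by -53.4 percentage points, and the 53BP1-deficient mean differed by -57.3 points. The Lig4-/- mean was thus 8.28 times the H2AX-deficient one and 17.6 times the 53BP1-deficient one. The smallest gap between a mutant and a Lig4-/- line, 51.4 points, exceeded the largest gap of 3.61 points between lines of 1 genotype. In a two-sided exact permutation test over lines p was 0.333 for each genotype, the smallest p that 2 lines against 2 allow, and 0.133 for the 4 mutant lines against 2, also the smallest. H2AX-deficient lines lay above 53BP1-deficient lines by 3.88 points, the nearest lines being 1.40 points apart, less than the 3.61 points between the H2AX-deficient lines.

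Most of the remaining reads had both strands beyond the window. Ends with both strands more than 19 nt in held 90.6% and 90.4% of reads in H2AX-deficient lines 5 and 8, 94.9% and 95.4% in 53BP1-deficient lines B and C, and 35.6% and 36.4% in Lig4-/- line A and line B. Ends with 1 strand inside the window and the other outside were few, with 3.82% in Lig4-/- line A the highest for ends whose 3′ strand alone was inside. Because reads are shares of a table, fewer near-break ends and more distant ends cannot be told apart. The average insert size that the authors list, whose unit is not stated, was higher in both Lig4-/- lines than in every mutant line. It was 188 and 266 in H2AX-deficient lines 5 and 8, and 220 and 216 in 53BP1-deficient lines B and C. In Lig4-/- line A and line B it was 405 and 426. Among mutant lines it did not follow the near-break share. It was lowest in H2AX-deficient line 5, whose share lay above both 53BP1-deficient lines. Its part in the result was not tested.

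The window limit cut through low values. Members whose farther strand stopped at 19 nt held 0% and 0.0590% of reads in H2AX-deficient lines 5 and 8, 0.0542% and 0.000786% in 53BP1-deficient lines B and C, and 0.721% and 0.276% in Lig4-/- line A and line B. The leading one there was the 1-nt 3′ overhang at 19/18, with 0.197% and 0.116% in the Lig4-/- lines. Just outside, structures at 20 nt held 0.248% and 0.00274% in the H2AX-deficient lines, 0.00473% and 0.00628% in the 53BP1-deficient lines, and 0.130% and 0.547% in the Lig4-/- lines. The 2-nt 3′ overhang at 20/18 led those, with 0.112% and 0.0960% in the Lig4-/- lines.

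The 266 members were 66.5% of the 400 combinations that 20 positions on each strand allow. Of these, 31 were listed in all 6 tables, 29 in only 1, and 230 in both Lig4-/- lines. Tables listed 117 and 171 members in H2AX-deficient lines 5 and 8, 144 and 58 in 53BP1-deficient lines B and C, and 253 and 239 in Lig4-/- line A and line B. Members listed in neither line of a genotype numbered 77 for H2AX, 110 for 53BP1 and 4 for Lig4-/-. The 4 members seen only in mutant lines were rare, the highest at 0.00274% of reads. Thinned to 3528 near-break reads each, the smallest number in any table, the tables gave 116 and 161 members in H2AX-deficient lines 5 and 8, 110 and 58 in 53BP1-deficient lines B and C, and 173 and 174 in Lig4-/- line A and line B. These counts are not at fully equal depth, because tables other than that of 53BP1-deficient line C list no structure with 1 read, which takes more structures from a shallow table than from a deep one.

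Reads were concentrated in few members. The 10 members with a mean share of at least 1% in Lig4-/- lines held 29.96% of all reads there, while 173 members had a mean under 0.1%. Among near-break reads the 10 leading structures of each table held 54.9% and 48.9% in H2AX-deficient lines 5 and 8, 75.5% and 94.6% in 53BP1-deficient lines B and C, and 51.8% and 47.3% in Lig4-/- line A and line B. Expressed as an effective number, the inverse of the summed squared shares, near-break reads were spread over 12.6 and 25.1 structures in the H2AX-deficient lines, 3.91 and 4.99 in the 53BP1-deficient lines, and 21.6 and 26.2 in the Lig4-/- lines. Both 53BP1-deficient lines lay below all others, and H2AX-deficient line 8 lay between the Lig4-/- lines.

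**Figure D2:**
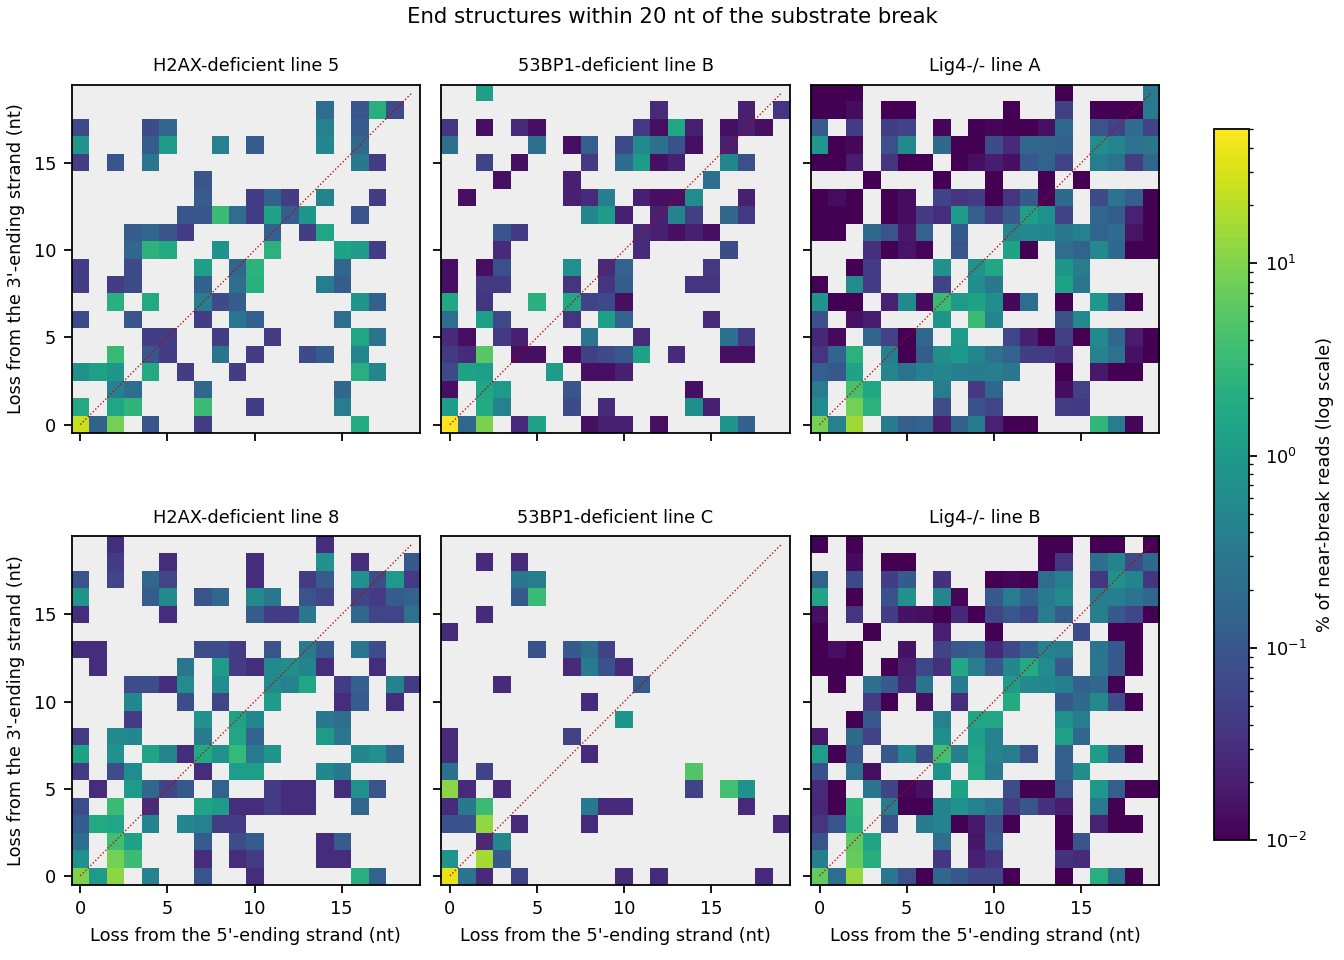
Maps of all near-break structures, 1 panel per line: loss from the 5′-ending strand (x axis, nt) against loss from the 3′-ending strand (y axis, nt), coloured by the share of near-break reads on a log scale whose lowest colour also holds smaller values; grey cells were not listed and the dotted line marks blunt ends. The end without loss, at the lower left corner, is brightest in the 53BP1-deficient lines with 48.99% and 37.4%, and the Lig4-/- maps are the most filled, with 253 and 239 structures.

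The leading near-break end of Lig4-/- cells was a 2-nt 3′ overhang at 2/0, a 3′-ending strand still complete over a 5′-ending strand shortened by 2 nt. It held 0.469% of all reads in H2AX-deficient line 5 and 1.09% in line 8, 0.379% in 53BP1-deficient line B and 0.000786% (1 read) in line C, and 9.07% and 8.06% in Lig4-/- line A and line B. All 4 mutant lines were below both Lig4-/- lines, and the 2 53BP1-deficient lines differed widely from each other. The Lig4-/- mean was 11.01 times the H2AX-deficient mean and 45.1 times the 53BP1-deficient mean. In edgeR's quasi-likelihood test the log2 fold change was -3.46 for H2AX (adjusted p = 0.400) and -5.49 for 53BP1 (adjusted p = 0.2), with Benjamini-Hochberg adjustment over all structures tested.

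The end with no loss on either strand, blunt at 0/0, is the structure a cut signal end would have, or a coding hairpin not yet opened. It held 1.36% and 0.858% of all reads in H2AX-deficient lines 5 and 8, 2.02% and 1.04% in 53BP1-deficient lines B and C, and 5.32% and 3.97% in Lig4-/- line A and line B. The groups did not overlap, but the distance was the smallest among the 10 leading Lig4-/- members: Lig4-/- means were 4.18 times the H2AX-deficient and 3.04 times the 53BP1-deficient means. The edgeR log2 fold changes were -2.06 (adjusted p = 0.479) for H2AX and -1.60 (adjusted p = 0.453) for 53BP1. These directions depend on scaling to the table total: with DESeq2's size factors the values were 0.47 and 2.66, and with TMM the 53BP1 value was 1.07.

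The 1-nt 3′ overhang at 2/1 held 0.0865% and 0.771% of reads in H2AX-deficient lines 5 and 8, 0.0749% and 0.446% in 53BP1-deficient lines B and C, and 5.05% and 4.08% in Lig4-/- line A and line B. The blunt end 2 nt inside, at 2/2, held 0.0223% and 0.344% in the H2AX-deficient lines, 0.0616% and 0.000786% in the 53BP1-deficient lines, and 2.51% and 3.68% in the Lig4-/- lines. The blunt end at 7/7 held 0.0210% and 0.160% in the H2AX-deficient lines, 0.0672% in 53BP1-deficient line B, and 1.90% and 2.35% in the Lig4-/- lines, and was not listed in 53BP1-deficient line C. In each of these 3 structures H2AX-deficient line 8 was several-fold above line 5, a wider ratio than between the Lig4-/- lines.

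Short overhangs next to these ends were also lower in all mutant lines on the scale of table totals, to different extents. The 2-nt 5′ overhang at 2/4 held 0.169% and 0.309% in H2AX-deficient lines 5 and 8, 0.231% and 0.0919% in 53BP1-deficient lines B and C, and 1.43% and 1.60% in Lig4-/- line A and line B, which makes the Lig4-/- mean 6.35 and 9.40 times the H2AX- and 53BP1-deficient means. The 1-nt 5′ overhang at 2/3 held 0.0498% and 0.139% in the H2AX-deficient lines, 0.0488% and 0.345% in the 53BP1-deficient lines, and 0.828% and 1.35% in the Lig4-/- lines. The 2-nt 3′ overhang at 3/1 held 0.144% and 0.313% in the H2AX-deficient lines, 0.0175% and 0.00314% in the 53BP1-deficient lines, and 1.43% and 1.21% in the Lig4-/- lines, a Lig4-/- mean 5.77 times the H2AX-deficient and 128 times the 53BP1-deficient mean. For 53BP1 the direction at 2/1, 2/4 and 2/3 turned with the scaling: with DESeq2's size factors the log2 fold changes were 0.40, 1.04 and 2.14 in that order, and with TMM the one at 2/3 was 0.11.

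Farther from the break the leading structures were long or internal 3′ overhangs. The 16-nt 3′ overhang at 16/0, with a complete 3′-ending strand, held 0.106% and 0.193% in H2AX-deficient lines 5 and 8, 0.0346% in 53BP1-deficient line B, and 1.66% and 1.32% in Lig4-/- line A and line B. The 3-nt 3′ overhang at 9/6 held 0.0157% and 0.108% in the H2AX-deficient lines, 0.05001% in 53BP1-deficient line B, and 2.03% and 1.06% in the Lig4-/- lines. Neither was listed in 53BP1-deficient line C.

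**Figure D3:**
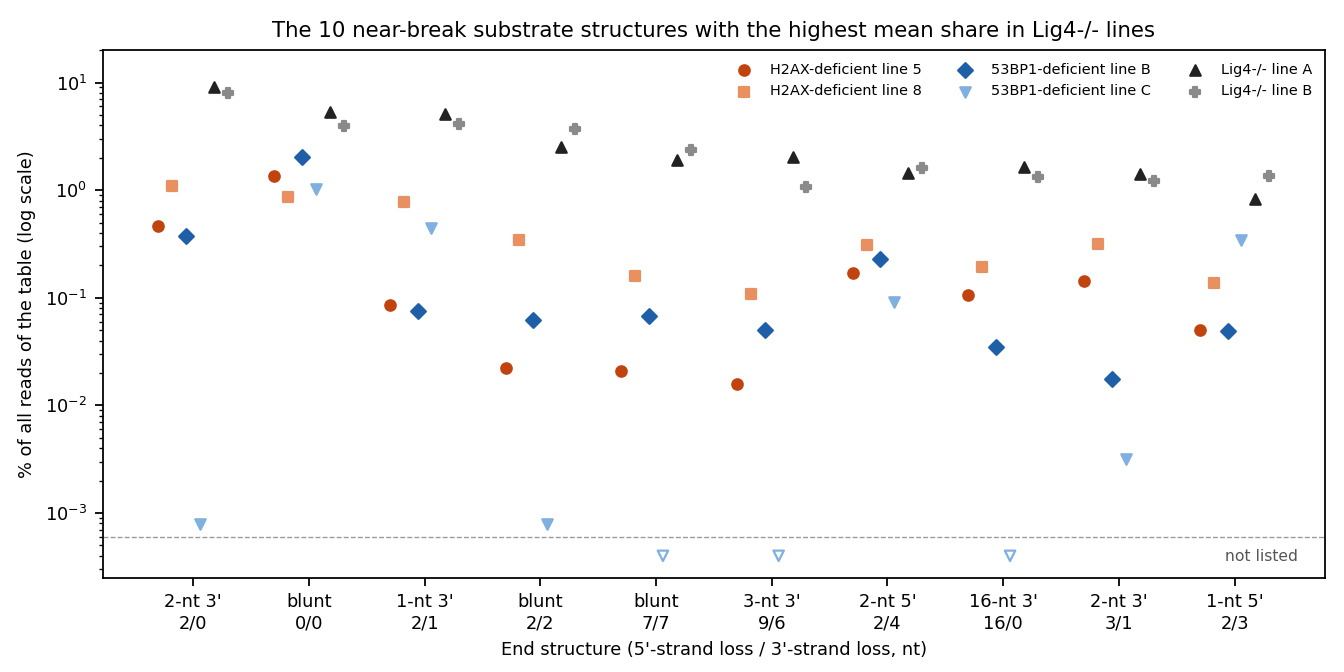
Share of all reads of a table (y axis, percent, log scale) of the 10 near-break structures with the highest mean share in Lig4-/- lines, ordered by that mean, 1 symbol per line; open symbols below the dashed line mark structures not listed in that table. In all 10 the 4 mutant lines lie below both Lig4-/- lines on this scale of table totals (for 53BP1 not at 0/0, 2/1, 2/4 and 2/3, and for H2AX not at 0/0, under DESeq2's size factors), and the end at 0/0 shows the smallest distance.

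Across the members, 197 of 266 (74.1%) were lower in both H2AX-deficient lines than in both Lig4-/- lines, against 13% of all 2454 structures (320). For 53BP1 these were 217 (81.6%), against 15% of all structures (369). Only a structure listed in both Lig4-/- lines can be lower in this sense. Of the members 230 were listed in both, while Lig4-/- lines A and B listed 895 and 714 of all 2454 structures. The contrast with all structures thus partly follows from where structures are listed. The share among structures listed in both Lig4-/- lines was not computed. Members higher in both lines than in both Lig4-/- lines numbered 4 for H2AX, against 3.87% of all structures, and 0 for 53BP1, against 3.75%. The 4 that were higher in the H2AX-deficient lines were 5′ overhangs, at 1/3, 2/7, 4/7 and 8/16, and were picked out after their values were seen. The first of them, the 2-nt 5′ overhang at 1/3, had 56 and 119 reads in H2AX-deficient lines 5 and 8 and 209 and 77 reads in Lig4-/- line A and line B. Since shares of a table sum to a whole, a low total of near-break reads lowers most members together.

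The test per structure made no call when fitted on all 6 tables, but did for 53BP1 when fitted on the 4 tables of the genotypes compared. Of 480 structures with enough reads for edgeR's quasi-likelihood test, 173 were members, and 0 members passed an adjusted p of 0.05 in either direction in H2AX-deficient or 53BP1-deficient against Lig4-/- lines or in H2AX-deficient against 53BP1-deficient lines, as did 0% of all structures. At an unadjusted p of 0.05, 8 of 173 members were lower for H2AX, 40 were lower for 53BP1 and 9 were higher in H2AX-deficient than in 53BP1-deficient lines. No count over all structures was made at that p, so these numbers cannot be read against a background. The smallest adjusted p-values of members were 0.393, 0.2 and 0.430 in the same order of comparisons. Fitted on the 53BP1-deficient and Lig4-/- tables alone, the same edgeR test called 90 of 192 members lower in 53BP1-deficient lines (46.9%), against 39.4% of all structures tested (130 of 330). It called 0 members higher, against 5.45% of all structures (18 of 330). On the H2AX-deficient and Lig4-/- tables alone it called 0 members and 0% of all 342 structures. There 38 members were lower at an unadjusted p of 0.05, again without a count over all structures. The common dispersion of the fit on 6 tables was 4.02, on 3 residual degrees of freedom. The median log2 fold change of tested members was -3.45 for H2AX and -6.57 for 53BP1, against -0.79 and -3.57 over all 480. Scaling moves these medians: over all structures they were 0.92 and -1.33 with TMM, and those of members were -1.64 and -4.02. The read filter can be met by the 2 Lig4-/- lines alone, so members high only there were tested. Such a filter favours negative values, so the medians and the calls lower on 4 tables are descriptions and no independent support. Without the filter the medians were -3.51 and -5.94 over all 266 members and 0 over all 2454 structures.

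DESeq2 called members lower on the same tables, in numbers to be read against its background. It called 8 members lower for H2AX (5.83% of all structures tested, 28 of 480) and 27 for 53BP1 (8.96%, 43 of 480). It called 1 member higher in each comparison, while 28.1% of all structures were called higher in each, 135 of 480. The members' shares of 4.62% lower for H2AX and 15.6% lower for 53BP1 lay beside 6.51% and 5.21% of the 307 structures outside the window. For H2AX the share of members called lower was thus not above that of the other structures.

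Within the near-break reads the kind of end also differed between genotypes. These shares use the near-break reads of each line as the whole, so they do not follow from how many there were. Ends without loss held 24.6% and 9.39% of near-break reads in H2AX-deficient lines 5 and 8, 48.99% and 37.4% in 53BP1-deficient lines B and C, and 8.78% and 6.53% in Lig4-/- line A and line B. All 4 mutant lines lay above both Lig4-/- lines, by far in 53BP1-deficient lines and by only 0.614 points for H2AX-deficient line 8. The differences of means were 9.35 points for H2AX and 35.5 points for 53BP1. Without H2AX-deficient line 5 the H2AX difference was 1.74 points, so its size rests on that line.

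Other kinds of end also differed in their share of near-break reads. Ends without loss stay in that whole, so a higher share of them lowers the other shares. Shares among ends with loss alone were not computed. Blunt ends with loss held 1.61% and 8.77% of near-break reads in H2AX-deficient lines 5 and 8, 3.27% and 0.142% in 53BP1-deficient lines B and C, and 11.2% and 16.4% in Lig4-/- line A and line B. All 3′ overhangs together held 42.2% and 55.6% in the H2AX-deficient lines, 23.5% and 28.2% in the 53BP1-deficient lines, and 65.5% and 55.9% in the Lig4-/- lines. H2AX-deficient line 8 and Lig4-/- line B were nearly equal there, while the 53BP1-deficient lines were well apart from the Lig4-/- lines. For 3′ overhangs the H2AX-deficient and Lig4-/- lines stayed apart in 9 of 12 alternatives. The H2AX difference of -11.8 points was -1.47 without the most abundant structure of each line and -0.144 with each structure counted once. All 5′ overhangs held 31.5% and 26.2% in the H2AX-deficient lines, 24.2% and 34.3% in the 53BP1-deficient lines, and 14.5% and 21.2% in the Lig4-/- lines, again with no overlap between mutant and Lig4-/- lines. With each structure counted once, the H2AX difference in 5′ overhangs turned to -2.06 points, in place of 11.05.

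**Figure D4:**
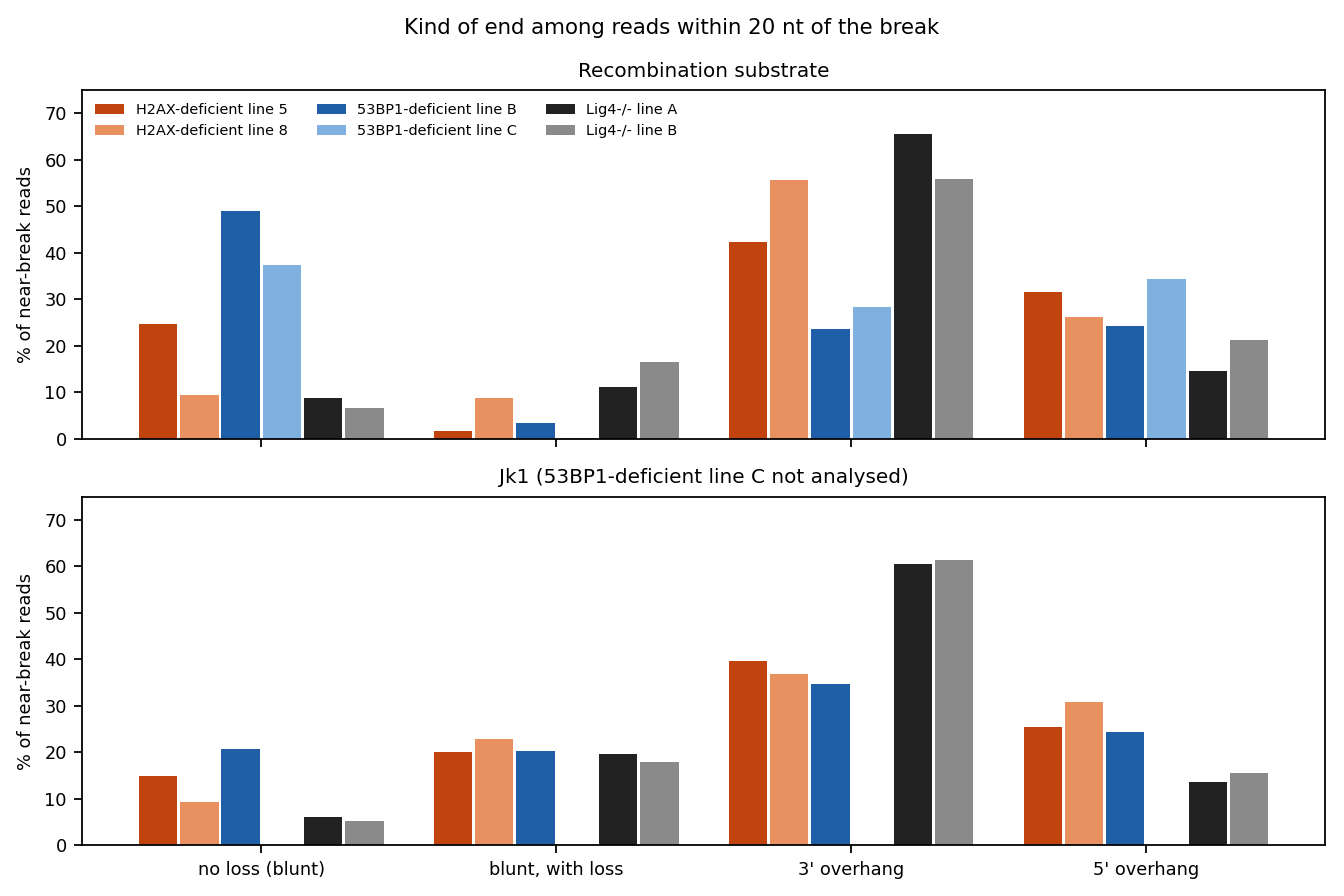
Share of near-break reads (y axis, percent) that were ends without loss, blunt ends with loss, 3′ overhangs and 5′ overhangs, for each line at the substrate (top) and at Jk1 (bottom), 1 bar per line with no error bar because each table pools its libraries. At both breaks the mutant lines have more ends without loss, fewer 3′ overhangs and more 5′ overhangs than the Lig4-/- lines; for blunt ends with loss the mutant lines are lower at the substrate and higher at Jk1.

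Of 14 classes of end, the H2AX-deficient lines did not overlap the Lig4-/- lines in 7, the 53BP1-deficient lines in 11, and all 4 mutant lines together in 5. Those 5 were ends without loss, ends whose 5′ strand had no loss, 5′ overhangs of 1 to 4 nt, ends with loss on the 5′ strand only, and ends with a 5′-strand loss of 4 to 9 nt. Short 5′ overhangs held 20.4% and 17.6% in H2AX-deficient lines 5 and 8, 18.9% and 17.8% in 53BP1-deficient lines B and C, and 9.73% and 14.4% in Lig4-/- line A and line B. Ends with loss on the 5′ strand only held 10.7% and 15.7% in the H2AX-deficient lines, 11.7% and 0.425% in the 53BP1-deficient lines, and 19.6% and 16.7% in the Lig4-/- lines. In each of the 5 the exact permutation p was 0.133, the smallest that 4 lines against 2 allow, and 0.339 after adjustment over the 14 classes.

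Short 3′ overhangs separated 53BP1-deficient but not H2AX-deficient lines from Lig4-/- lines. Those of 1 to 4 nt held 26.7% and 46.2% of near-break reads in H2AX-deficient lines 5 and 8, 18.1% and 18.3% in 53BP1-deficient lines B and C, and 50.3% and 43.7% in Lig4-/- line A and line B. Ends with a 5′-strand loss of 10 to 19 nt, the longest class in the window, held 28.5% and 23.8% in the H2AX-deficient lines, 10.7% and 10.9% in the 53BP1-deficient lines, and 27.4% and 30.8% in the Lig4-/- lines. Whether H2AX- and 53BP1-deficient lines differ from each other in these classes was not tested. Mean loss from the 5′ strand among near-break reads was 5.72 and 5.78 nt in the H2AX-deficient lines, 2.70 and 2.57 nt in the 53BP1-deficient lines, and 6.39 and 6.72 nt in the Lig4-/- lines.

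The commonest stop of the 5′-ending strand differed between lines. It was complete in 28.2% and 13.05% of near-break reads in H2AX-deficient lines 5 and 8, 52.3% and 50.1% in 53BP1-deficient lines B and C, and 11.9% and 10.04% in Lig4-/- line A and line B. It stopped 2 nt in for 16.8% and 30.5% of near-break reads in H2AX-deficient lines 5 and 8, 21.9% and 32.03% in 53BP1-deficient lines B and C, and 31.9% and 31.6% in Lig4-/- line A and line B. Only 1 nt in, it stopped for 1.47% and 2.83% in the H2AX-deficient lines, 1.65% and 0.680% in the 53BP1-deficient lines, and 0.722% and 0.361% in the Lig4-/- lines. No loss was thus the commonest 5′-strand position in H2AX-deficient line 5 and both 53BP1-deficient lines, and a loss of 2 nt was the commonest in H2AX-deficient line 8 and both Lig4-/- lines. The 3′-ending strand was complete in 35.3% and 25.05% in the H2AX-deficient lines, 60.7% and 37.8% in the 53BP1-deficient lines, and 28.4% and 23.2% in the Lig4-/- lines. A 3′-strand loss of 14 nt was rare everywhere, between 0 and 0.258% of near-break reads.

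Profiles over the 266 members were most alike between the Lig4-/- lines, with Pearson r = 0.971 and Spearman rho = 0.819 as a description across structures of unequal depth. H2AX-deficient line 8 correlated with Lig4-/- lines A and B at r = 0.947 and 0.926, and with H2AX-deficient line 5 at r = 0.690. By r, H2AX-deficient line 5 was nearer to the 53BP1-deficient lines B and C, at 0.930 and 0.775. Likeness by r thus did not follow genotype among the mutant lines. By rank the order differed: H2AX-deficient line 5 had rho = 0.515 with line 8, and 0.448 and 0.256 with 53BP1-deficient lines B and C. Its rho with Lig4-/- lines A and B was 0.477 and 0.540. 53BP1-deficient lines B and C correlated at r = 0.835 and rho = 0.343, and shared 46 members, 31.9% of those in line B and 79.3% of those in line C. Of the 10 leading structures, the Lig4-/- lines shared 8, the H2AX-deficient lines 4 and the 53BP1-deficient lines 3. Between genotypes, H2AX-deficient line 8 shared 8 with each Lig4-/- line, 7 with 53BP1-deficient line B and 3 with line C.

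The Jk1 segment of the immunoglobulin kappa locus, cut by RAG in 5 of the same lines, gave a break that the choice of members did not use. Ends within 20 nt held 15.5% and 17.9% of reads there in H2AX-deficient lines 5 and 8, 15.9% in 53BP1-deficient line B, and 77.0% and 56.5% in Lig4-/- line A and line B. The near-break share was lower at the substrate than at Jk1 in 4 of 5 lines, by a mean difference of -8.49 points (two-sided exact permutation test within lines, p = 0.125, with 0.0625 the smallest possible). Lig4-/- line B was the exception. When every structure had equal weight the difference turned to 3.44 points (exact p = 0.0625).

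Ends without loss pointed the same way at Jk1 as at the substrate: they held 14.8% and 9.40% of near-break reads in H2AX-deficient lines 5 and 8, 20.7% in 53BP1-deficient line B, and 6.10% and 5.16% in Lig4-/- line A and line B. 3′ overhangs held 39.6% and 36.8% at Jk1 in the H2AX-deficient lines, 34.7% in 53BP1-deficient line B, and 60.5% and 61.3% in the Lig4-/- lines. Over the 3 mutant lines against 2 the exact permutation p was 0.2 for each, the smallest that 3 lines against 2 give in this test. At Jk1 the commonest 5′-strand stop lay 4 nt in for all 5 lines, with 41.1% and 53.3% in the H2AX-deficient lines, 48.3% in 53BP1-deficient line B, and 52.4% and 53.4% in the Lig4-/- lines.

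Some features were higher at the substrate than at Jk1 in every line measured at both. Near-break reads with a complete 3′-ending strand differed by 11.6 points, those with a complete 5′-ending strand by 11.1 points, and those with a 5′-strand loss of 10 nt or more by 10.9 points, each in 5 of 5 lines. The exact p was 0.0625 for each, the smallest possible with 5 lines, and 0.146 after adjustment over 7 such comparisons, of which 6 were added after the data were seen. The shares of all 3′ and all 5′ overhangs differed by 1.97 and 1.55 points, with 3 of 5 lines higher at the substrate in both.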

How the data were processed

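The authors sequenced HCoDES libraries of genomic DNA on an Illumina MiSeq, per the labels' protocols, and deposited for each cell line and break a table giving the unnormalised read counts of end structures. The sources used here give no aligner, filters or genome build. Counts were used from 12 tables (6 substrate, 5 Jk1, 1 KpnI), and 2 tables that repeat another were left out. Members, classes and the rule for naming structures were chosen with earlier results of these data known. Named structures were the 10 with the highest mean share in Lig4-/- lines, the 5 highest in each mutant genotype, up to 5 called per direction and contrast, the end without loss, and the leading ones at the window limit. A structure absent from a table counted as 0. Shares used the table total or the near-break reads. Counts were tested with edgeR 4.0.16 (R 4.3.3, library size the table total, minimum count 10, adjusted p 0.05), with DESeq2 1.42.0 as an alternative. The edgeR test was also run on simulated data, and the outcome is not given here. Other values came from scipy 1.17.1, numpy 2.4.6 and pandas 2.3.3 in Python 3.11.15, with matplotlib 3.10.9 for figures. Lines were paired between substrate and Jk1 because the same line was measured at both.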

Additional observations from a re-analysis of the deposited data

Results flagged for a closer look

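Some differences in shares of near-break reads pointed opposite ways at the 2 breaks. At the substrate, ends with a 5′-strand loss of 1 to 3 nt held 25.3% and 33.4% of near-break reads in 53BP1-deficient lines B and C, and 37.1% and 36.1% in Lig4-/- line A and line B, a difference of means of -7.24 points. At Jk1 they held 11.5% in 53BP1-deficient line B, above 9.29% and 6.32% in Lig4-/- line A and line B, a difference of 3.66 points. Blunt ends with loss were lower in mutant lines at the substrate, by differences of -8.62 points for H2AX and -12.1 points for 53BP1. At Jk1 they held 20.1% and 22.9% in H2AX-deficient lines 5 and 8, 20.3% in 53BP1-deficient line B, and 19.7% and 18.0% in Lig4-/- line A and line B, differences of 2.62 and 1.47 points. The nearest lines at Jk1 lay 0.318 points apart. Ends without 5′-strand loss stay in the whole, and a higher share of them lowers the other shares. At the substrate they held 52.3% and 50.1% in 53BP1-deficient lines B and C, against 11.9% and 10.04% in Lig4-/- lines. At Jk1 they held 22.4% in 53BP1-deficient line B, against 6.70% and 5.36%. Shares among ends with 5′-strand loss alone were not computed, so a direction there is not given. The differences between the breaks were not tested, and only 1 line of the 53BP1 genotype was used at Jk1.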

How the results depend on the processing

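The near-break share was lower in every mutant line than in both Lig4-/- lines under all 12 alternatives tried for each genotype. Leaving out single lines gave -55.2 to -51.6 points for H2AX and -57.9 to -56.6 for 53BP1. With each structure counted once the differences were -8.71 and -18.2 points for H2AX and 53BP1, with a window of 10 nt -34.7 and -36.7, and with a window of 30 nt -56.8 and -61.8. Without the most abundant near-break structure of each table the 53BP1 difference was -55.1 points. For ends without loss, leaving out that structure turned the differences to -3.60 points for H2AX and -8.92 for 53BP1, because it was the end without loss itself in 3 of the 4 mutant lines, and it turned the 53BP1 difference in all blunt ends to -21.7 points. Counting each structure once gave 0.802 points for ends without loss in 53BP1 and turned the H2AX difference in 5′ overhangs to -2.06 points. Leaving out single lines gave 1.74 to 16.97 points for ends without loss in H2AX and 29.7 to 41.3 in 53BP1. Without the replicate block that pairs lines, substrate against Jk1 gave p = 0.548 for the same -8.49 points (exact permutation); single lines left out gave -11.7 to -6.52 points, and counting each structure once turned it to 3.44 points. Calls of edgeR were 0 under TMM, other count minimums and set 4 alone. Fitted on the 2 genotypes only, edgeR called 90 of 192 members lower for 53BP1 (130 of 330 structures in all). Without 53BP1-deficient line B, which leaves 1 line of that genotype, the median log2 fold change of tested members for 53BP1 was -8.95. Over all structures tested it was -2.75. DESeq2 called 8 lower and 1 higher for H2AX, 27 lower and 1 higher for 53BP1, and 2 lower and 8 higher for H2AX against 53BP1. For H2AX against 53BP1 it called 20 of all 480 structures lower and 35 higher. These were 1.16% and 4.62% of members, below the 5.86% and 8.79% of structures outside the window. Log2 fold changes turned to 0.47 (H2AX) and 2.66 (53BP1) at 0/0, and for 53BP1 to 0.40 at 2/1, 1.04 at 2/4 and 2.14 at 2/3 with DESeq2, and to 1.07 at 0/0 and 0.11 at 2/3 with TMM; the cause was not tested. Members lower than both Lig4-/- lines were also counted without single mutant lines, which was added after seeing the data. Such counts can only stay or rise, and were 208 to 214 for H2AX and 220 to 227 for 53BP1. They were not made over all structures. Tables pool libraries, so the spread between libraries is unknown. Fitted on all 6 tables, edgeR called nothing at a spread this wide, which does not show that members did not differ.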

Other observations

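The combinations of strand positions that were listed formed blocks, a pattern noticed after seeing the tables. Ends whose 3′-ending strand had lost 1, 2, 6, 8 or 9 nt occurred with all of 8 particular 5′-strand losses, giving 40 of 40 combinations. They occurred with none of the other 12, giving 0 of 60 combinations in any of the 6 tables. No 5′-strand loss combined with some of these 5 and not others. The 5′-strand losses in the listed block were 0, 2, 3, 7, 9, 10, 14 and 15 nt. These ends held 18.7% and 30.2% of near-break reads in H2AX-deficient lines 5 and 8, 11.1% and 23.8% in 53BP1-deficient lines B and C, and 31.5% and 30.1% in Lig4-/- line A and line B. How the authors assigned positions is not given in the sources used here, and the part of that step in the blocks was not tested. Stops read to 1 nt, such as 2/1 or 2/2, carry this limit.

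53BP1-deficient line C had near-break structures that held more of its near-break reads than of those of any other line. A 5-nt 5′ overhang at 0/5 held 404 reads, 11.5% of its near-break reads, and an 8-nt 3′ overhang at 14/6 held 174 reads, 4.93%. On the scale of all reads, the edgeR log2 fold change of the structure at 14/6 for 53BP1 against Lig4-/- was -0.005. That value covers both 53BP1-deficient lines and lay above the median of -6.57 over tested members. Both structures were chosen after their values were seen.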
